A study of Mus musculus with 6 samples.

Results

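The genes described here encode 4 fatty acid desaturases (*Fads1*, *Fads2*, *Scd1* and *Scd2*), 3 fatty acid elongases (*Elovl1*, *Elovl5* and *Elovl6*), the lipogenic enzymes *Fasn* and *Acaca*, and the regulator *Srebf1*. They were 10 of the 27202 genes listed for the colon of mice with colitis, and all 10 were among the 16246 genes that passed the filter on low values. The list was chosen by gene name with measured values of the same contrast in view, so the differences between genotypes given below for these genes are descriptions and carry no test.

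RNA of whole colon was sequenced in 3 libraries from mice that lack *Nedd4l* in the gut epithelium (*Nedd4l* fl/fl Villin Cre, cKO) and in 3 from *Nedd4l* fl/fl littermates (WT). NEDD4L is a ubiquitin ligase of the HECT family. Both groups carried floxed *Nedd4l* alleles, from a line on a C57BL/6J background, and were 8 to 10 weeks old. Per the labels they received 2% dextran sulfate sodium (DSS), which injures the colonic epithelium, in drinking water over 7 days, and the tissue was from day 7. The Villin promoter drives Cre in intestinal epithelial cells (IECs), whereas the RNA came from whole tissue, so other cell types kept the gene. Untreated mice were not analysed here, and the comparison asks how loss of *Nedd4l* in IECs alters the inflamed colon.

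Values are normalized counts, that is, reads per gene divided by a size factor of the library. *Nedd4l* itself had 476, 942 and 566 normalized counts in cKO libraries 1 to 3, against 1241, 1271 and 1266 in the WT libraries. The log2 difference was −0.99 (SE 0.24; limma, adjusted p = 0.225 over all genes tested). These counts are for the gene as a whole and not per exon, and the sources used here do not name the deleted part. Library cKO2 kept the most *Nedd4l* of its group and correlated better with the WT libraries (mean r across genes 0.977) than with its own group (0.966). Library cKO1 stood apart by the neutrophil gene *S100a8*, with 2708 normalized counts against 31.0 and 417 in the other cKO libraries and 12.8 to 38.7 in WT. For this reason, values without cKO1 and without cKO2 are given below. By limma no gene passed an adjusted p of 0.05 in either direction (0% of all genes tested), and an unadjusted p under 0.05 was met by 1151 genes in the lower and 1122 in the higher direction. edgeR on recovered reads also called 0% in each direction, and 1111 and 1214 genes met an unadjusted p of 0.05. DESeq2 on the same reads called 173 genes lower (1.06%) and 259 higher (1.59%).

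Fatty acids are built from acetyl-CoA: acetyl-CoA carboxylase makes malonyl-CoA, and fatty acid synthase joins these units into palmitate. Elongases at the endoplasmic reticulum lengthen the chain, and desaturases place double bonds, either the first one in saturated chains (the SCD enzymes) or further ones in dietary polyunsaturated fatty acids (the FADS enzymes). SREBP-1, the product of *Srebf1*, is a membrane-bound transcription factor that is cleaved and activates many of these genes. In the colon the products serve membranes, mucosal lipids and precursors of eicosanoids.

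In the cKO libraries *Fads1* was at 54.6% and *Srebf1* at 69.6% of the WT mean, and *Fasn* and *Elovl1* were at 85.1% and 93.6%, in each case with every cKO library below every WT library. *Elovl6* was the single gene with a higher mean in cKO, at 140% of WT, and its groups overlapped. The other members, *Fads2*, *Scd2*, *Acaca*, *Elovl5* and *Scd1*, had cKO means of 81.9% to 93.5% of WT, and their groups also overlapped. In all, 9 members were lower and 1 was higher by sign, where 49.8% of all genes tested were lower. The groups did not overlap for 4 members in the lower direction and for 0 in the higher direction, against 10.9% and 10.5% of all genes tested. The median log2 difference of the members was −0.19, and that of all genes tested was 0.0013.

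**Figure D1:**
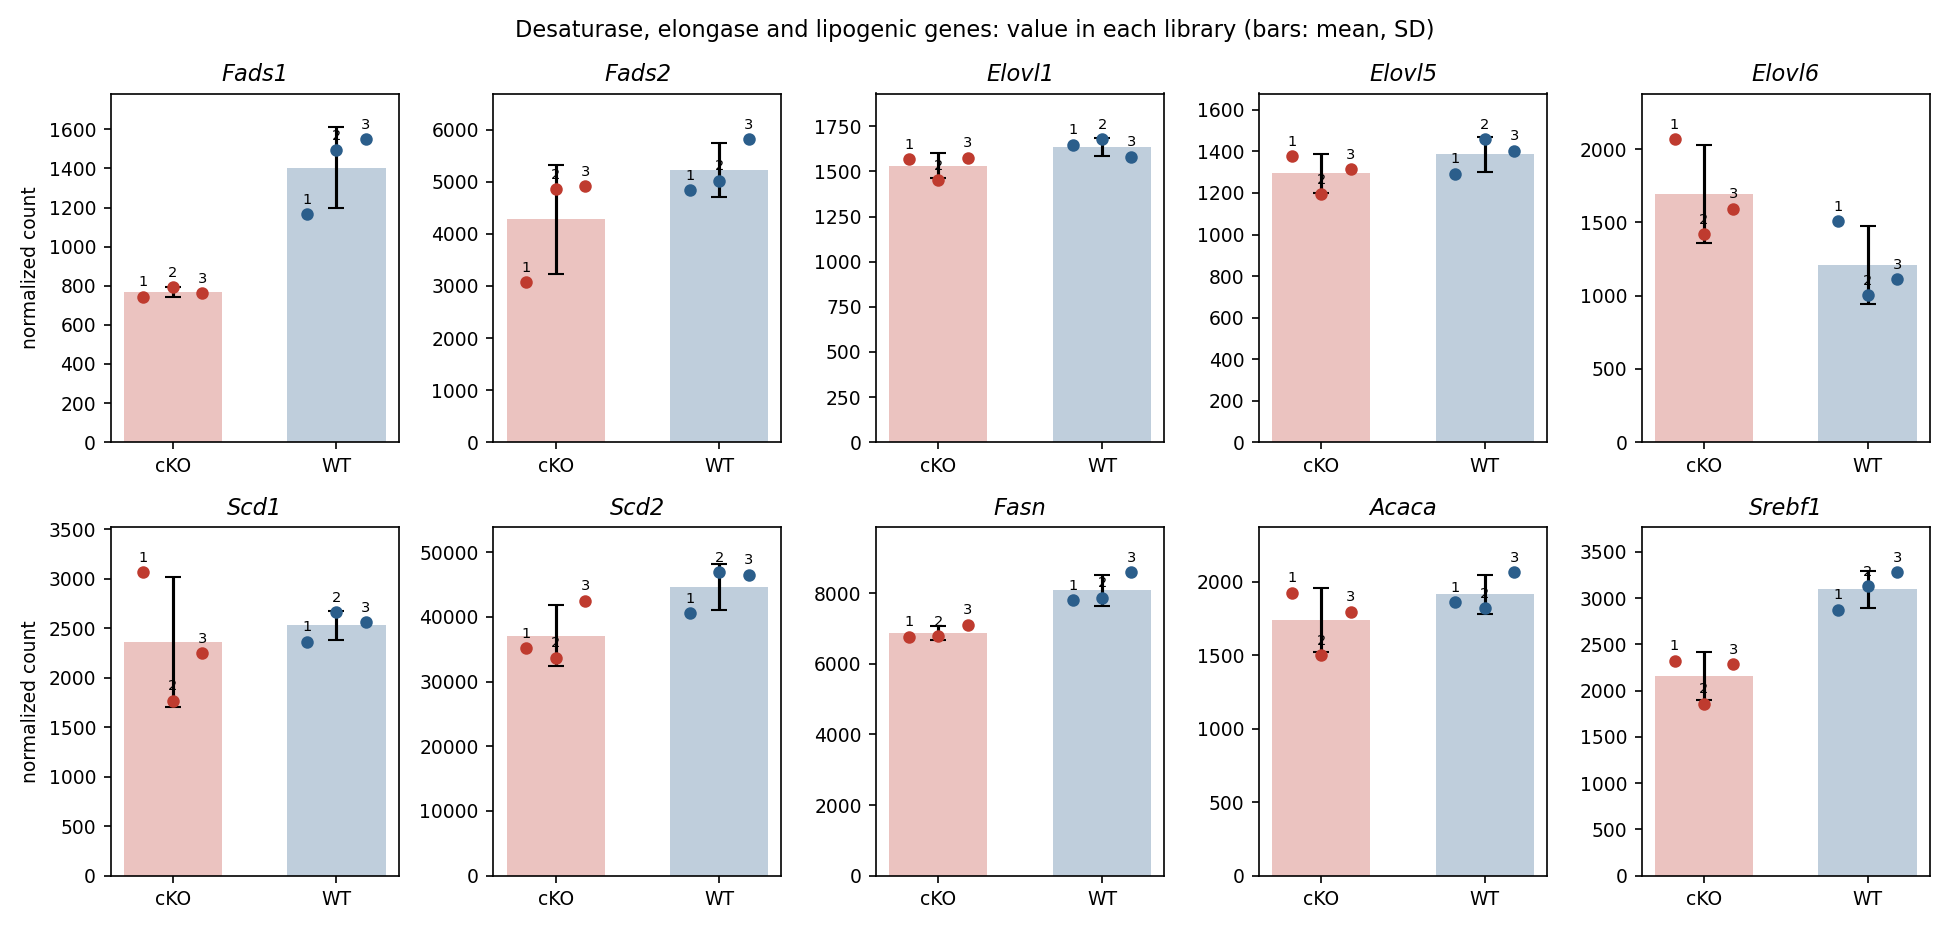
Normalized counts of the 10 genes (vertical axes, each from 0) in the cKO (red) and WT (blue) libraries. Points are libraries with their replicate number, bars the mean and error bars the SD (n = 3 a group). All cKO points lie below all WT points for *Fads1*, *Elovl1*, *Fasn* and *Srebf1*, and *Elovl6* is the one gene with a higher cKO bar.

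Promoter sequence is shown for the members whose groups did not overlap and for *Elovl6*, the one with a higher mean in cKO, because letters known to bind regulators of lipogenic genes could be compared among them. RefSeq windows of build GRCm38.p6, from 250 bases before to 50 bases after a transcript start, were given for 7 of the 10 members (10 windows in all), and *Fads1*, *Scd1* and *Scd2* had none. The lines give 1 window each, 5′ to 3′ on the strand of the gene, in lower case with every motif match in capitals. The motifs searched on both strands were TCACNCCAC (a sterol regulatory element, SRE), CACGTG (an E-box), CCAAT (the NF-Y box, ATTGG on the other strand) and GGGCGG (the GC box, CCGCCC on the other strand).
*Fasn* (chr11:120824498-120824797, minus strand): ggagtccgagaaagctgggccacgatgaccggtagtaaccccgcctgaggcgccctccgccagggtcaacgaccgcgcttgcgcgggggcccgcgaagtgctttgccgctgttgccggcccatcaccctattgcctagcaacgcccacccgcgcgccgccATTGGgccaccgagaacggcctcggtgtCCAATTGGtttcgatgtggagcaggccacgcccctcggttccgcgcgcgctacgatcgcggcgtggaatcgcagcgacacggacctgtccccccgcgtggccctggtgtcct
*Srebf1* (chr11:60210422-60210721, minus strand, 1 of 3 windows): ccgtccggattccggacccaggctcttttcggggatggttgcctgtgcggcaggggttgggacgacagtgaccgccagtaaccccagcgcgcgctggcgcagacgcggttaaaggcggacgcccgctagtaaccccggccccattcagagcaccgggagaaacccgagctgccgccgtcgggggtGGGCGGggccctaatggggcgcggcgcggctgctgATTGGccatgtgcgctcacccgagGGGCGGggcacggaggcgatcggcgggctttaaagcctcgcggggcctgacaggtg
*Elovl1* (chr4:118427843-118428142, plus strand, 1 of 2 windows): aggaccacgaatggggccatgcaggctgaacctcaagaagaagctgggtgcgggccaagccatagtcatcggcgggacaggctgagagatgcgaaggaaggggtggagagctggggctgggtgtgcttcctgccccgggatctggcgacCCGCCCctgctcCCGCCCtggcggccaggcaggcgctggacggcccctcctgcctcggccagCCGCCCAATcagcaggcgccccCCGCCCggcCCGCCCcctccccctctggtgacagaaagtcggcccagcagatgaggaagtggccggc
*Elovl6* (chr3:129532136-129532435, plus strand): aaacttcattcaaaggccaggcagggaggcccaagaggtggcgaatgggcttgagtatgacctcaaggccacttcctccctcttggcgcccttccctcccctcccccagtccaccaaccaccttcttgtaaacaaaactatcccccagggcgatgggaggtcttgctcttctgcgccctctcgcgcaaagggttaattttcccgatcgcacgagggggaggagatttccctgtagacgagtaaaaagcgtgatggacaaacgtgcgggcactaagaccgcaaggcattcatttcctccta

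The *Fasn* window held 3 CCAAT matches, starting at −90, −62 and −59 from the transcript start, of which the last 2 overlap on opposite strands. The *Srebf1* window shown held 1 CCAAT match at −30 and 2 GC boxes at −65 and −6. The *Elovl1* window held 5 GC boxes between −101 and −8, 1 of which overlaps its CCAAT match at −35. The *Elovl6* window held no match to any of the 4 motifs, and neither did that of *Acaca*. The *Acaca* window (chr11:84195188-84195487) lies inside the listed gene and not at its listed start, 84129672. The other *Srebf1* windows held 1 CCAAT match and 3 GC boxes, and the other *Elovl1* window 2 GC boxes. Of the remaining windows, that of *Elovl5* held 1 E-box and 2 CCAAT matches and that of *Fads2* held 1 GC box. No member window held the SRE letters, which were in 1.24% of all 32851 windows, while 7.15% held the E-box, 37.4% the CCAAT box and 35.7% the GC box. These matches describe letters in a window and not binding. Variants of the motifs were not searched, so a window without a match may still hold a site.

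The delta-5 desaturase gene *Fads1* (ENSMUSG00000010663, chr19:10182888-10196870, plus strand), whose enzyme forms arachidonic acid, had the largest difference in size among the members. It had 744, 794 and 763 normalized counts in cKO libraries 1 to 3 and 1167, 1494 and 1551 in WT. The cKO libraries lay close together (767 ± 25.2, SD, n = 3) and well below the WT libraries (1404 ± 207), of which WT1 was the lowest. The log2 difference was −0.86 (SE 0.12), and between the alternatives tried it ran from −0.99 to −0.75. It was −0.84 without cKO1 and −0.89 without cKO2.

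*Fads2* (ENSMUSG00000024665, chr19:10064164-10101503, minus strand), which encodes the delta-6 desaturase that acts before FADS1 in the same route, lies 81384 bases from *Fads1*. Its values were 3074, 4856 and 4917 normalized counts in cKO against 4840, 5020 and 5823 in WT. Only cKO1 was clearly low, cKO2 and cKO3 were above WT1, and the log2 difference of −0.32 (SE 0.19) became −0.09 without cKO1 and −0.42 without cKO2. The ratio of *Fads1* to *Fads2*, each per kb of exon, was 0.106, 0.0713 and 0.0677 in the cKO libraries and 0.105, 0.130 and 0.116 in WT. In cKO2 and cKO3 this ratio was below all WT libraries, and in cKO1 it was within their range.

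The stearoyl-CoA desaturases make monounsaturated fatty acids. *Scd2* (chr19:44293676-44306864, plus strand) was by far the most abundant member, with 35134, 33683 and 42473 normalized counts in cKO and 40528, 46862 and 46543 in WT. Library cKO3 was above WT1, and the log2 difference was −0.27 (SE 0.11), −0.24 without cKO1 and −0.21 without cKO2. *Scd1* (chr19:44394451-44407709, minus strand), 87586 bases away, varied most within the cKO group of all members, with a coefficient of variation of 27.8% against 5.91% in WT. Its values were 3063, 1767 and 2246 normalized counts in cKO and 2365, 2658 and 2562 in WT. Library cKO1 was the highest of the 6 libraries and cKO2 the lowest, so the log2 difference of −0.14 (SE 0.19) turned to 0.05 without cKO2 and was −0.34 without cKO1. The ratio of *Scd1* to *Scd2* per kb was 0.0983 in cKO1 and between 0.0591 and 0.0658 in the other 5 libraries. The *Scd* genes are close relatives, and how reads shared by them were counted is not given in the sources used here.

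The other members of the desaturase families were low or did not differ beyond their spread. *Fads3*, the third gene of the chromosome 19 cluster, ranged from 553 to 632 normalized counts in cKO and from 447 to 613 in WT (log2 difference 0.09, SE 0.14; limma, adjusted p = 0.778). *Scd3* ranged from 6.71 to 20.6 in cKO and from 13.8 to 36.9 in WT (log2 difference −1.07, SE 0.53; limma, adjusted p = 0.401). These levels rest on few reads. *Scd4* was at 2.88 to 16.6 in cKO and 9.90 to 22.0 in WT, and *Fads6* at 11.5 to 15.5 and 16.0 to 17.8, without overlap.

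Among the elongases, *Elovl6* (chr3:129532355-129638495, plus strand), which extends palmitate to stearate, had 2070, 1418 and 1595 normalized counts in cKO and 1507, 1004 and 1111 in WT. Library WT1 was above cKO2, and the other 2 WT libraries were below every cKO library. The log2 difference was 0.49 (SE 0.19), 0.34 without cKO1 and 0.61 without cKO2. *Elovl5* (chr9:77917364-77984519, plus strand), which extends polyunsaturated fatty acids, had 1376, 1194 and 1315 in cKO and 1293, 1460 and 1404 in WT (log2 difference −0.10, SE 0.09). It was −0.14 without cKO1 and −0.04 without cKO2. The ratio of *Elovl6* to *Elovl5* per kb was 0.823, 0.651 and 0.664 in the cKO libraries and 0.638, 0.377 and 0.434 in WT. Every cKO library was above every WT library for this ratio, which does not depend on the size factor, although WT1 was just below cKO2.

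*Elovl1* (chr4:118428093-118432953, plus strand), which makes very long saturated chains for sphingolipids, had 1567, 1452 and 1576 normalized counts in cKO and 1648, 1680 and 1582 in WT. The groups did not overlap, but WT3 and cKO3 differed by little, and the log2 difference was −0.10 (SE 0.08), −0.11 without cKO1 and −0.06 without cKO2. *Cdc20*, a mitotic gene on the other strand, overlaps *Elovl1* and had 927, 921 and 1176 normalized counts in cKO against 707, 760 and 745 in WT (log2 difference 0.44, SE 0.11; limma, adjusted p = 0.219). Whether the authors counted reads by strand is not given in the sources used here, so reads of the shared stretch cannot be told apart. *Elovl7* ranged from 1833 to 2272 in cKO and from 1829 to 2030 in WT (log2 difference 0.05, SE 0.10; limma, adjusted p = 0.847). *Elovl2* and *Elovl4* were below the filter, at 0 to 3.09 and 0.988 to 5.99 normalized counts in the 6 libraries, and *Elovl3* was not among the listed genes.

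The fatty acid synthase gene *Fasn* (chr11:120805846-120824547, minus strand) had 6763, 6777 and 7110 normalized counts in cKO and 7794, 7875 and 8585 in WT. The 3 cKO libraries varied by 2.86% and all lay below WT, with a log2 difference of −0.23 (SE 0.08), which was −0.22 without cKO1 and also without cKO2. *Acaca* (chr11:84129672-84401651, plus strand), the gene of the cytosolic acetyl-CoA carboxylase that supplies malonyl-CoA to FASN, had 1925, 1500 and 1795 in cKO and 1860, 1818 and 2063 in WT. Here cKO2 was low and cKO1 was above WT1 and WT2, with a log2 difference of −0.14 (SE 0.11). It was −0.22 without cKO1 and −0.04 without cKO2. The ratio of *Fasn* to *Acaca* per kb ranged from 5.48 to 7.05 in cKO and from 6.49 to 6.76 in WT, so the cKO libraries spread on both sides of WT.

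*Srebf1* (chr11:60199089-60222581, minus strand) had 2323, 1858 and 2286 normalized counts in cKO and 2877, 3133 and 3278 in WT. All cKO libraries lay below all WT libraries, and cKO2, the library with the most *Nedd4l* of its group, was the lowest. The group values were 2156 ± 258 and 3096 ± 203 (SD, n = 3), with a log2 difference of −0.53 (SE 0.11). It was −0.58 without cKO1 and −0.42 without cKO2. *Rai1*, on the other strand, overlaps *Srebf1*. It had 570, 622 and 638 normalized counts in cKO against 817, 740 and 621 in WT (log2 difference −0.24, SE 0.12; limma, adjusted p = 0.398). As for *Elovl1*, reads of a shared stretch cannot be told apart. The *Srebf1* transcript says nothing of how much SREBP-1 was cleaved.

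**Figure D2:**
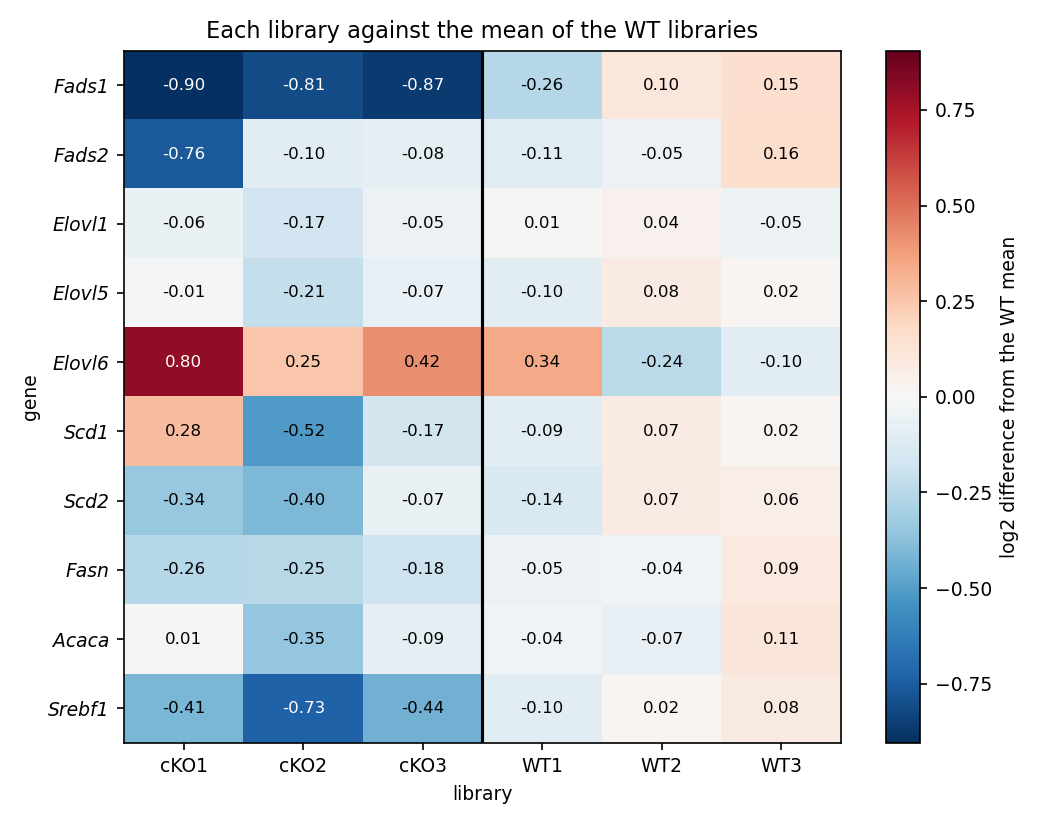
The log2 difference of each library (columns) from the mean of the 3 WT libraries for each gene (rows), in red where higher and in blue where lower. *Fads1* is at −0.90, −0.81 and −0.87 in the 3 cKO libraries, whereas the low value of *Fads2* (−0.76) is in cKO1 and that of *Scd1* (−0.52) in cKO2.

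The order of the libraries differed between the members. Library cKO2 held the lowest value of 6 members, cKO1 of 3 and WT2 of 1. Library WT3 held the highest value of 5, WT2 of 3 and cKO1 of 2. The median over members of the log2 difference from the WT mean was −0.16 in cKO1, −0.30 in cKO2 and −0.087 in cKO3, against −0.096, 0.029 and 0.074 in WT1, WT2 and WT3. Thus cKO3 and WT1 were alike by this measure. Without cKO2, 8 members were lower and the median log2 difference was −0.13, and without cKO1 the values were 9 and −0.22.

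Per kb of the exon length in the deposited table, the members spanned a range of 70.1-fold. *Scd2* was at 7495 normalized counts per kb over the 6 libraries and made up 53.9% of the summed level of the members. *Fads2* followed at 3153 per kb, then *Fasn* at 684, *Elovl1* at 581, *Scd1* at 505, *Srebf1* at 466, *Elovl5* at 381, *Fads1* at 314, *Elovl6* at 226 and *Acaca* at 107. The ranges over libraries of *Scd2*, *Fads2* and *Fasn* did not overlap with that of the next gene, and neither did those of *Elovl6* and *Acaca*. For *Fasn* the margin was small, with a lowest value of 618 against a highest of 616 for *Elovl1*. Its range did overlap with that of *Scd1*, which reached 633 in cKO1. From *Elovl1* to *Elovl6* each gene overlapped with the next in order. The level of *Fads2* per kb depends on its table length of 1508 bases, which is 45.8% of its exon length in the GENCODE M21 annotation of the same build, and *Fads1* was at 71.8%. The lengths of the other members were at least 98.9% of those in M21.

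**Figure D3:**
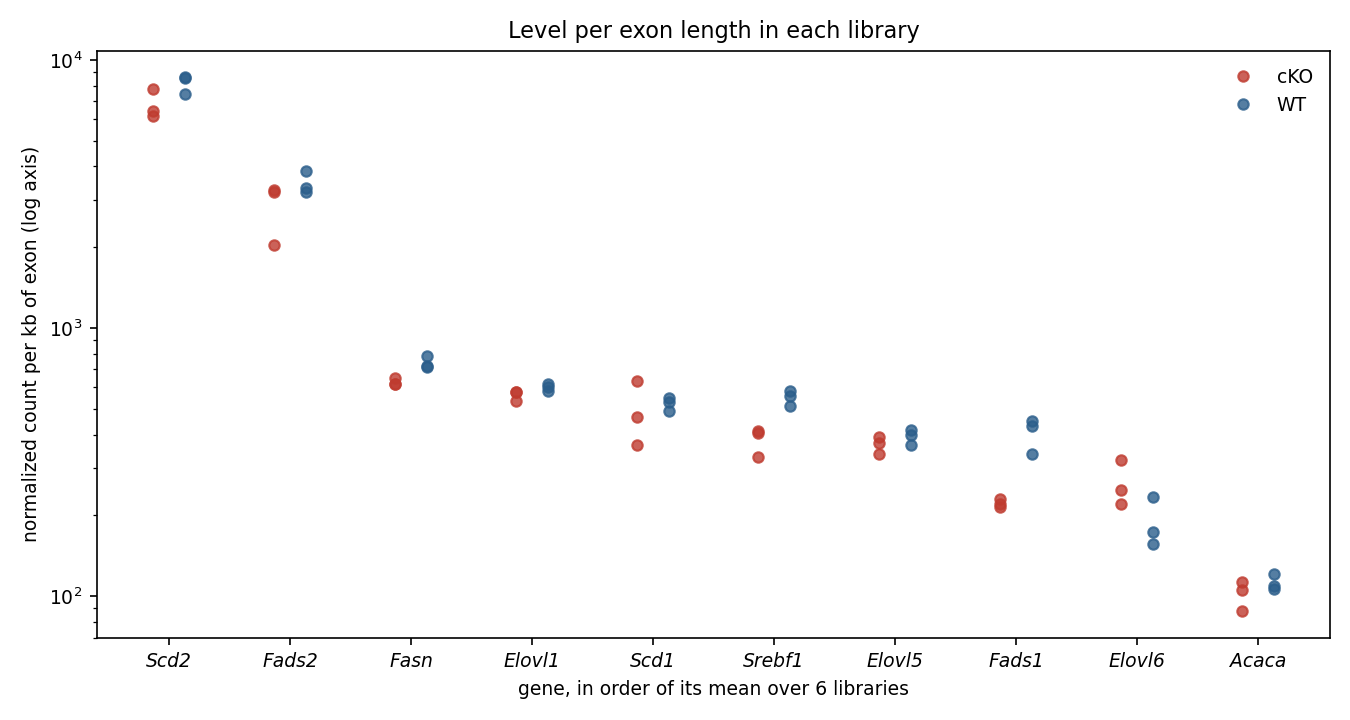
Normalized counts per kb of exon (logarithmic vertical axis) of each gene in the 3 cKO (red) and 3 WT (blue) libraries, ordered by the mean over all 6. *Scd2* and *Fads2* lie above the others, at means of 7495 and 3153 per kb, and *Acaca* is the lowest at 107.

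For the rest of the pathway, 67 other genes of 5 lists on fatty acid synthesis and use were examined, of which 66 were listed and 64 were tested. By limma 0 of them passed an adjusted p of 0.05, and the smallest adjusted p was 0.169. By sign 40 were lower and 24 higher, with a median log2 difference of −0.06. At an unadjusted p under 0.05, 7 were lower and 5 higher, where 7.08% and 6.91% of all genes tested met this. The groups did not overlap for 11 in the lower direction (17.2%) and for 7 in the higher direction (10.9%), against 10.9% and 10.5% of all genes tested. The following genes are those with the smallest unadjusted p in each list.

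In the list of de novo lipogenesis, 6 of 9 tested genes were lower by sign. *Mid1ip1*, an activator of acetyl-CoA carboxylase, had 1289, 1318 and 1286 normalized counts in cKO and 1627, 1816 and 1674 in WT (log2 difference −0.39, SE 0.08; limma, adjusted p = 0.169). *Me1*, the malic enzyme that supplies NADPH, had 392, 228 and 363 in cKO and 163, 196 and 141 in WT (log2 difference 0.95, SE 0.23; limma, adjusted p = 0.211). Both had groups that did not overlap, in opposite directions. *Oxsm*, of mitochondrial fatty acid synthesis, had a log2 difference of −0.30, with groups that did not overlap, and *Acacb*, the mitochondrial acetyl-CoA carboxylase, one of 0.38 (limma, adjusted p = 0.258 and 0.425).

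Of 14 other regulators, 10 were lower by sign. *Mlxipl*, which encodes the carbohydrate-responsive factor ChREBP, had 141, 277 and 265 normalized counts in cKO and 323, 346 and 396 in WT (log2 difference −0.70, SE 0.26; limma, adjusted p = 0.320). Groups also did not overlap for *Insig2*, which retains SREBP at the endoplasmic reticulum (0.28, adjusted p = 0.326), for *Rxra*, the partner of the liver X receptors (−0.18, 0.397), and for *Mbtps2*, a protease that cleaves SREBP (0.17, 0.461). None of the 4 passed the test.

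Among the 9 other tested genes of desaturation, *Cyb5b*, a cytochrome b5, had a log2 difference of −0.20 (limma, adjusted p = 0.316), *Degs1*, the dihydroceramide desaturase, of 0.51 (0.317) and *Cyb5a* of 0.15 (0.531). The groups did not overlap for *Cyb5b* and *Fads6*, both lower in cKO, and for *Degs1*, higher in cKO. They overlapped for the others, *Cyb5a* among them. Of 7 other elongation genes the groups overlapped for all, with log2 differences of 0.68 for *Hacd4*, −0.17 for *Tecr*, −0.25 for *Hacd1* and −0.17 for *Hacd3* (limma, adjusted p from 0.384 to 0.587). In acyl activation and glycerolipid synthesis, 14 of 25 genes were lower by sign. *Mboat2*, a lysophospholipid acyltransferase, had 123, 158 and 84.6 normalized counts in cKO and 53.3, 41.4 and 50.9 in WT (log2 difference 1.27, SE 0.27; limma, adjusted p = 0.192). *Gpam*, the mitochondrial glycerol-3-phosphate acyltransferase, had 302, 341 and 306 in cKO and 681, 442 and 492 in WT (log2 difference −0.74, SE 0.17; limma, adjusted p = 0.202). Neither group pair overlapped, and the same held for *Agpat5* (−0.30, adjusted p = 0.259) and *Dgat1* (0.27, adjusted p = 0.301).

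The 17 genes of cholesterol synthesis and uptake, which are driven mainly by SREBP-2, were split evenly, with 9 lower and 8 higher by sign, a median log2 difference of −0.0014 and overlapping groups for all. The 4 with the smallest p were *Fdft1* (0.28), *Dhcr7* (−0.21), *Sc5d* (0.19) and *Mvd* (0.11), with adjusted p from 0.337 to 0.556 by limma.

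**Figure D4:**
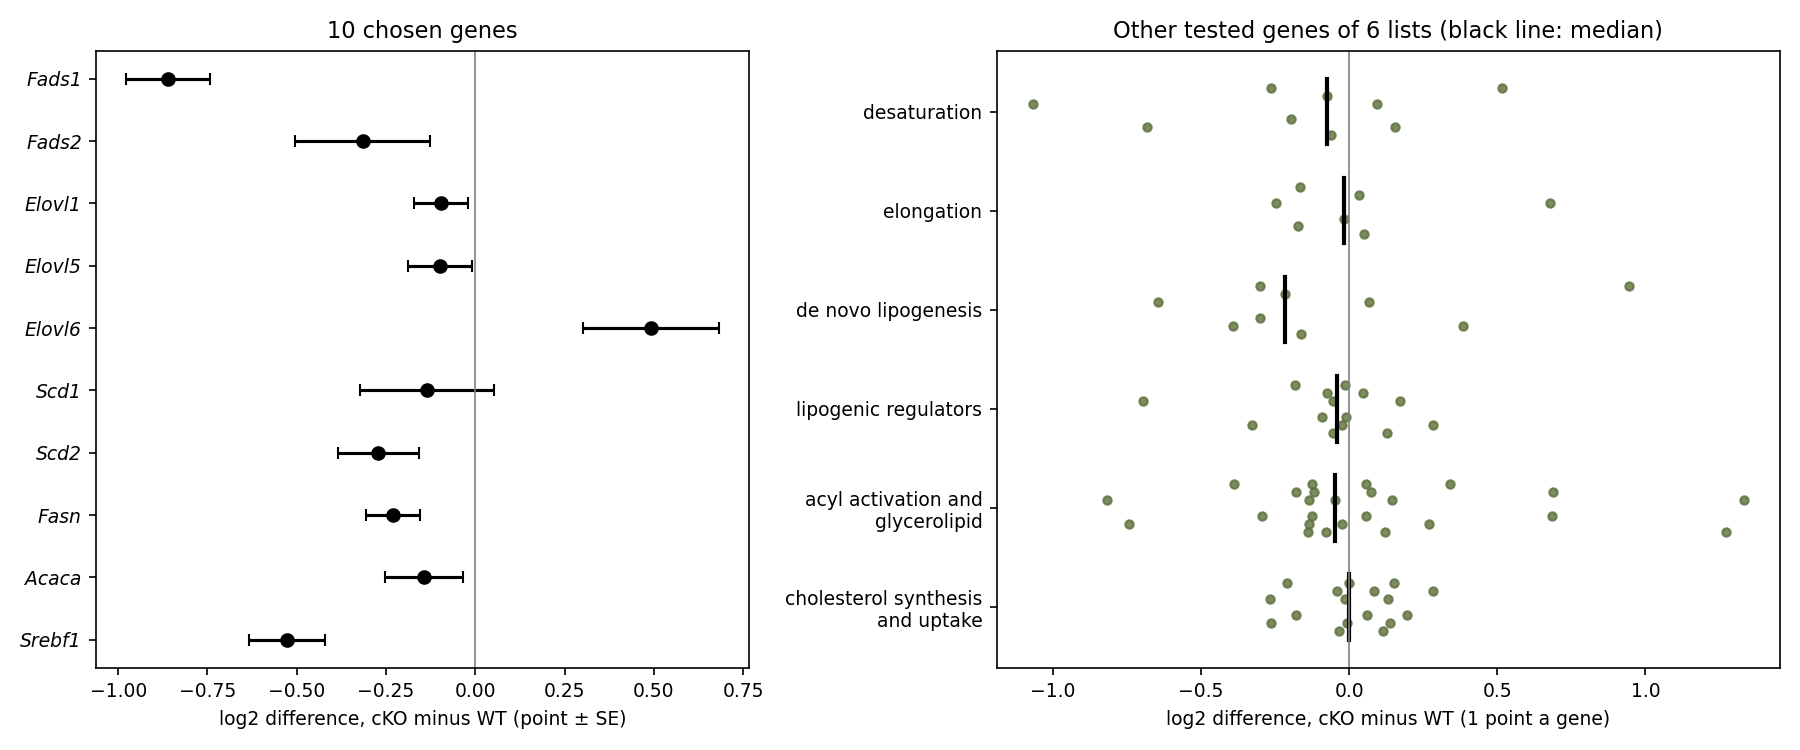
Left, log2 difference between the group means (cKO minus WT, horizontal axis) of the 10 genes with its SE. Right, the same difference for each other tested gene of 6 lists (1 point a gene), with the median of each list as a black line. The medians run from −0.22 for de novo lipogenesis to −0.0014 for cholesterol synthesis and uptake.

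Whole colonic tissue holds several cell types, and in such bulk samples fewer cells of a type and less RNA per cell cannot be told apart. The 14 epithelial markers, among them *Epcam*, *Cdh1* and *Krt8*, were all present, and their sum ranged from 275484 to 348742 normalized counts in cKO, lowest in cKO1, and from 315038 to 349730 in WT. By sign 11 of the 14 were lower in cKO and 3 higher, with overlapping groups for each marker and for the sum. When values were divided by this sum, the cKO libraries remained below all WT libraries for *Fads1* alone (4.12% of all genes tested were so on this scale), *Elovl1* and *Elovl5* changed sign to 0.01 each, and the median of all genes tested shifted by 0.108 on the log2 scale. The median of the members was then −0.078. *Srebf1* overlapped by a single library, with 8.43 counts per 1000 epithelial marker counts in cKO1 against 8.23 in WT1.

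The summed markers of other cells also differed in range between the groups. The leukocyte sum (10 genes, among them *Ptprc*, *Cd3e* and *Cd79a*, with none at 0 in all libraries) was 4465 to 11188 in cKO and 3487 to 4619 in WT. The neutrophil genes *S100a8* and *S100a9* made up 48.2% of the sum in cKO1, and without them it was 4015 to 5800 in cKO and 3438 to 4575 in WT. *Cd3e* was below and *S100a9* above WT in every cKO library, and *Ptprc* and *Cd79a* overlapped. The fibroblast and smooth muscle sum (8 genes, all present) was 23424 to 39890 in cKO and 14776 to 26045 in WT, with *Col1a1* and *Col3a1* above WT in every cKO library and *Dcn* overlapping. By sign 4 of the 8 were higher and 4 lower, the latter being the smooth muscle genes *Actg2* (log2 difference −0.72), *Des* (−0.62), *Myh11* (−0.21) and *Acta2* (−0.06), all with overlapping groups. The endothelial sum (5 genes, among them *Pecam1*, *Cdh5* and *Kdr*) was 2144 to 3611 in cKO and 1490 to 2184 in WT. Proliferation markers summed to 13346 to 14934 in cKO, below the 15733 to 16483 in WT, with *Mcm2* and *Mcm5* below WT in every cKO library, *Ccnb1* above, and *Mki67*, *Top2a* and *Cdk1* overlapping. The part of these shifts in the values of the members was not tested.

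Marker transcripts were also summed for cells rich in lipogenic transcripts that could be carried along with colon. The adipocyte markers *Adipoq* and *Plin1* were at 0 to 6.99 and 0 to 3.95 normalized counts, and *Lep* was not among the listed genes. *Cidec* was at 36.1 to 71.9 in cKO and 33.9 to 49.4 in WT, and *Cfd* at 0 to 24.3 and 0 to 46.4. The sum of the 6 listed genes, mostly *Fabp4*, was 234 to 308 in cKO and 153 to 370 in WT. Of 12 markers of anorectal squamous epithelium and sebaceous gland, 7 were listed, with a sum of 55.3 to 106 in cKO and 58.3 to 76.9 in WT, and *Krt5*, *Ivl*, *Krtdap*, *Awat1* and *Mc5r* were not. This sum was highest in cKO1, where *Krt14* was at 46.0, against 1.11 and 7.22 in cKO2 and cKO3 and 6.91 to 13.5 in WT. *Krt1* was at 0 to 2.70. *Dsg3* was at 22.0, 1.11 and 16.5 in cKO1 to cKO3 and at 0 to 4.94 in WT. *Awat2* was at 3.32 to 9.28 in cKO and 5.40 to 19.97 in WT, and *Krt10* at 32.6 to 45.3 and 36.5 to 43.2. The groups overlapped for each of these genes, so the direction differed by gene and by library.

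**Figure D5:**
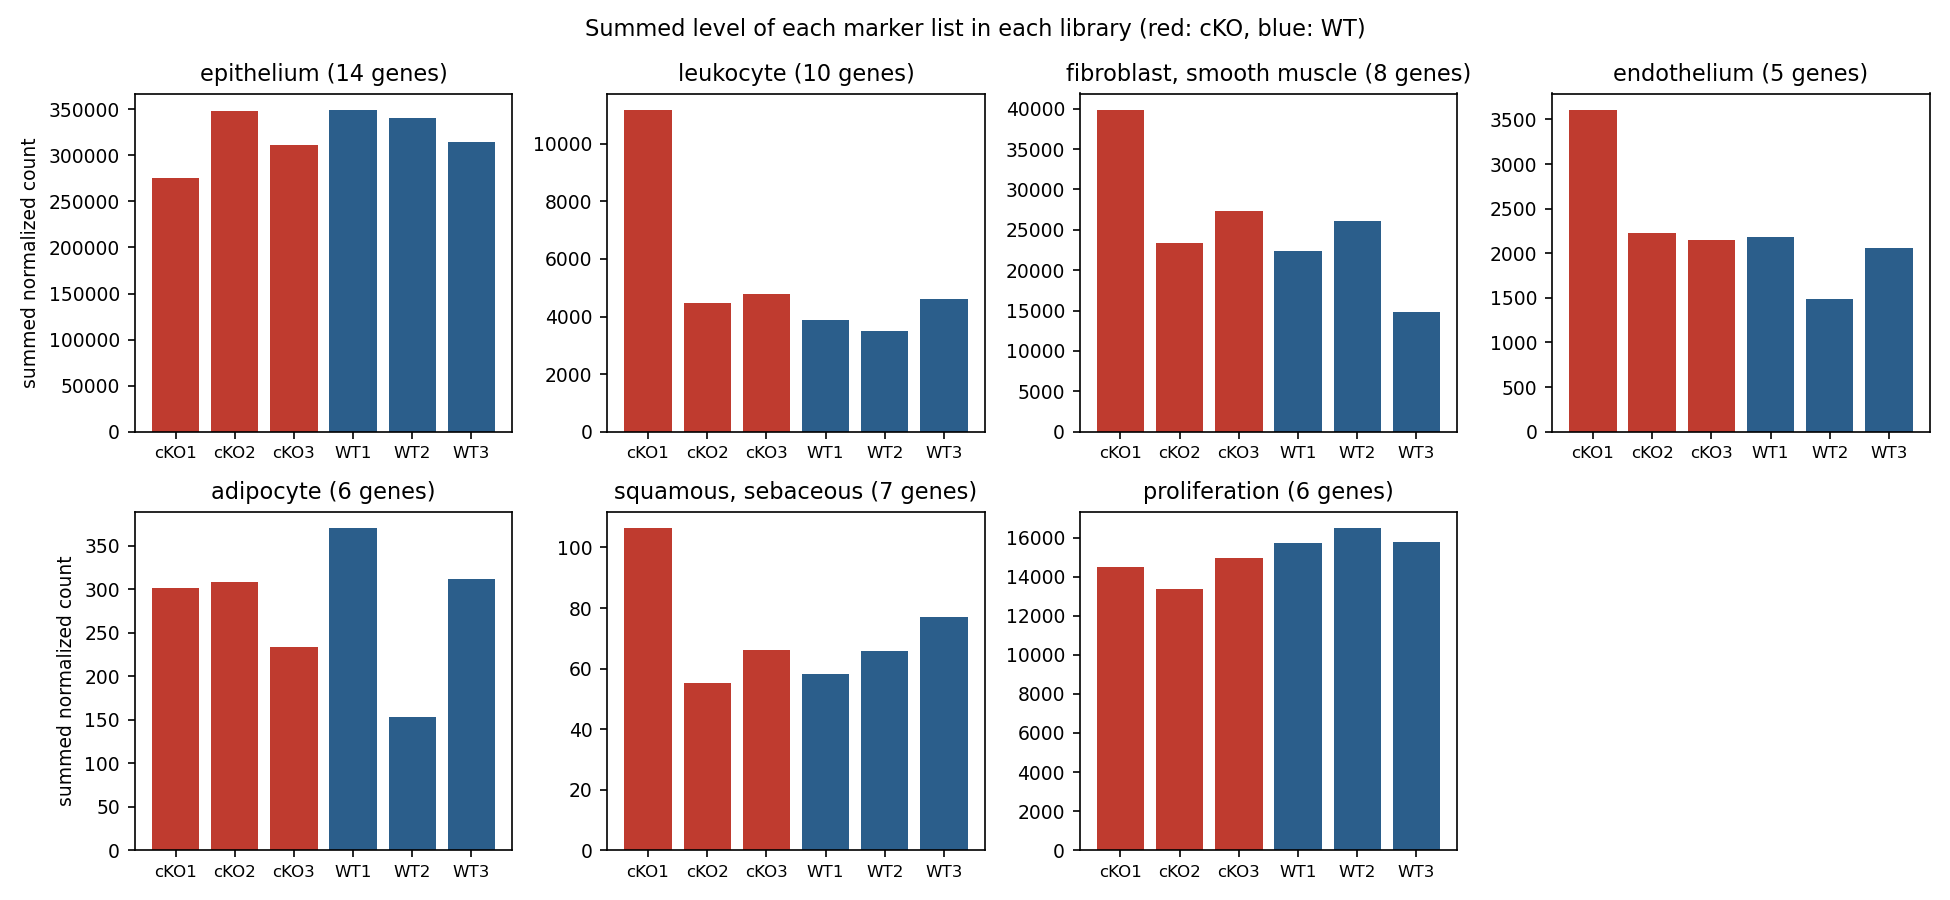
Summed normalized counts of 7 marker lists (vertical axes, each from 0) in each of the 3 cKO (red) and 3 WT (blue) libraries. The epithelial sum is lowest in cKO1 (275484), where the leukocyte sum is highest (11188), and the adipocyte sum stays between 153 and 370.

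The members were spread over 5 chromosomes, with 4 on chromosome 19 and 3 on chromosome 11. Within 20 kb of a member, a window chosen after the values were seen, 20 other genes were listed and 14 tested. The groups did not overlap for 4 of these in the lower direction (28.6%) and for 2 in the higher direction (14.3%), against 10.9% and 10.5% of all genes tested. Beside *Fasn*, the neighbours *Ccdc57*, *Gps1* and *Dus1l* had log2 differences of −0.75, −0.21 and −0.16 (limma, adjusted p = 0.343, 0.338 and 0.447), each with cKO libraries below WT. *Tada2a*, which starts 72 bases from *Acaca* on the other strand, had one of −0.27 (limma, adjusted p = 0.406). Beside *Fads1*, *Tmem258* had 846, 901 and 808 normalized counts in cKO and 680, 523 and 631 in WT (log2 difference 0.48, SE 0.12; limma, adjusted p = 0.211), opposite in sign to *Fads1*.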

How the data were processed

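RNA of colonic tissue was made into libraries with a NEBNext Ultra kit. Per the submitters' processing notes, reads were aligned with HISAT2 2.0.5 and counted with featureCounts 1.5.0-p3. The notes name build hg18, a human build, but the listed gene IDs are from mouse, and of the 27164 IDs found in GENCODE M21, 97.3% have identical GRCm38 coordinates. The deposited values are a signal, the normalized count per gene: the authors divided counts by a size factor, in a way not given in the sources used here. Within a library the values were whole multiples of 1 step (100% of values, tolerance 1e-04), and if 1 step is 1 read the libraries held 14914367 to 17547270 reads. The authors' mean columns and their own comparison columns (a log2 fold change, a p-value and an adjusted p-value) were deposited too and were not used. There were 0 columns of other samples.

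Log2(normalized count + 1) was tested with limma 3.58.1 (R 4.3.3; trend, robust, two-sided) in all 6 libraries with no covariate, for the 16246 genes whose mean reached 10. P-values were adjusted by Benjamini-Hochberg over these genes (threshold 0.05). Log2 differences are on this scale, which understates changes of low genes. As alternatives, edgeR 4.0.16 and DESeq2 1.42.0 were run on the recovered reads, and other pseudocounts (0.5 and 5), filters, scalings and weights, a block and each replicate left out were tried. The fits were tested on simulated data.

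Groups came from the labels. The labels do not say which animal each library came from, so p-values measure the spread between libraries only. No pair of libraries agreed within sampling noise (mean chi-square per gene from 18.9 to 85.2). The members and the lists were chosen with earlier results of these data known. Named genes are the members, their family members, *Nedd4l*, the up to 4 other tested genes of each list with the smallest unadjusted p, the first 3 genes of each marker list and those at 0; *S100a8*, other single markers and the neighbours were named after their values were seen. Protein identity between members was not analysed here, and 1 further marker list is not reported here. Figures were drawn with matplotlib 3.10.9.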

Additional observations from a re-analysis of the deposited data

How the results depend on the processing

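Under all alternatives *Fads1*, *Fads2*, *Scd2*, *Fasn*, *Acaca* and *Srebf1* stayed below and *Elovl6* above WT by sign. *Scd1* changed sign without cKO2, and *Elovl1* and *Elovl5* when values were divided by the epithelial sum. That scaling gave a median of −0.078 for the members and 1 member with all cKO libraries below WT, which held for 4.12% of all genes tested on that scale. Leaving out each library in turn, this count ranged from 4 to 7 (7 without WT1), and the count above WT from 0 to 1 (1 without WT1 and 1 without cKO2). With 1 library fewer, 14.4% to 19.1% of all genes tested were below and 14.6% to 18.5% above (16.2% and 16.8% without WT1).

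The counts of genes called, 0 in each direction by limma and by edgeR, differed under some other settings. Without a filter 23 genes were lower and 7 higher. Of the 16246 genes tested, DESeq2 gave 173 lower (1.06%) and 259 higher (1.59%), with no adjusted p for 1267 genes. Array weights gave 369 lower and 262 higher of the same 16246. Leaving out each library in turn gave 0 to 52 lower and 0 to 70 higher (22 and 2 without cKO1, 52 and 70 of 16256 genes without cKO2). Of the 64 other fatty acid genes, DESeq2 called 2 lower (*Mid1ip1* and *Gpam*) and 2 higher (*Me1* and *Mboat2*), array weights 3 lower (*Mid1ip1*, *Gpam* and *Agpat5*) and 1 higher (*Me1*), and leaving out a library 0 lower and 0 to 1 higher (*Me1* without cKO2). The cause was not tested.

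The replicate numbers showed no pairing of the libraries: deviations of same-numbered libraries from their group means correlated at −0.029, −0.090 and −0.056. With 3 libraries a group this cannot exclude a pairing. With the replicate block 0 genes were called lower and 0 higher.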
